A study of Mus musculus with 2 samples.

Results

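Glycolysis splits glucose into pyruvate in a chain of enzymatic steps, and several of these steps are run by different isozymes in different tissues. The 8 genes described here encode isozymes of 4 steps, namely the hexokinases Hk1 and Hk2, the phosphofructokinases Pfkl and Pfkm, the aldolases Aldoa and Aldoc, and the pyruvate kinases Pklr and Pkm. They were chosen by name, through every probe set that the array's annotation assigns to 1 of them, which gave 19 of 45101 probe sets. Of these, 18 named a member gene alone, and the remaining probe set named Hk1 together with 5 others, the ribosomal protein gene Rpl17 and related or predicted genes. It read 11508 on the antagomir-122 array and 11815 on the control array and was not used for Hk1. A total of 15 of the 18 had a mean signal above a floor of 238, the 60th percentile of all non-control probe sets, and each of the 8 genes had at least 1 such probe set. In the whole series, 10003 of 18193 named genes passed the same floor.

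The study treated mice with an oligonucleotide against a liver microRNA and read liver RNA on 2 single-colour arrays, 1 per group. The antagomir-122 group received the antagomir against miR-122, an abundant microRNA of hepatocytes, at 80 mg/kg per day. Antagomirs are modified RNA analogues with a cholesterol tail that pair with a microRNA and silence it. The control group received the scrambled antagomir called mm-antagomir-122 on the same schedule, so that both groups carried an injected oligonucleotide. Both groups were injected on 3 days, livers were taken 24 h after the last injection, and the RNA of 3 livers was combined before labelling, so that each array is 1 pool and holds no spread between animals. Strain, sex and age were not given in the sources used here. With 1 array per group no test between the groups could be run and no p-value is given. The brightest probe set above the floor stands for a gene, and the ratio is log2 of the antagomir-122 signal over the control signal.

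The 2% trimmed mean signal was 500.0 on both arrays, and the median ratio of the 10003 genes was 0.00. The spread between the brightest and the second probe set of a gene, an SD over 3860 genes, was 0.28 on the log2 scale. It serves here as a yardstick only and is not a replicate error. It holds real differences between transcripts, and leaves out animals and any pool or array effect that the probe sets of a gene share. Spiked hybridization controls were lower on the antagomir-122 array by a median log2 ratio of -0.27, and scaling on them would add 0.27 to every ratio. Directions are therefore relative to the bulk of genes. Hepatocyte markers were bright on both arrays, with 9 of 9 measured genes above the floor and antagomir-122 signals from 7418 to 34477 and control signals from 7801 to 33449. All 10 skeletal muscle markers were under the floor on both arrays.

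Adult hepatocytes rely on liver forms of these enzymes, among them liver phosphofructokinase and liver pyruvate kinase, which suit an organ that both makes and consumes glucose. Muscle, brain, leukocytes and proliferating cells make more use of other isozymes, which differ between these tissues. Among them are Hk1 and Hk2 at the first step, Pfkm in muscle at phosphofructokinase, Aldoa or Aldoc at aldolase and Pkm at pyruvate kinase. Aldoa in liver is known as a transcript that miR-122 holds down, and it is a usual readout of miR-122 inhibition. The question addressed by setting isozymes side by side is whether the antagomir pool differs at Aldoa alone or at the extrahepatic isozymes as a class.

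The regions before the start sites of Aldoa and Pklr are shown as 1 window each of a widely expressed isozyme and of a liver isozyme, chosen after their motifs were seen. Both are the 250 bases before a RefSeq start site in GRCm38.p6, and both genes have other start sites, whose windows differ. Capitals mark, on either strand, the hypoxia-type core, the GC box and the CCAAT box in Aldoa, and the carbohydrate-type core, the TATA element and the CCAAT box in Pklr, each spelled out after the sequences.
Aldoa, chr7:126799255-126799504, minus strand: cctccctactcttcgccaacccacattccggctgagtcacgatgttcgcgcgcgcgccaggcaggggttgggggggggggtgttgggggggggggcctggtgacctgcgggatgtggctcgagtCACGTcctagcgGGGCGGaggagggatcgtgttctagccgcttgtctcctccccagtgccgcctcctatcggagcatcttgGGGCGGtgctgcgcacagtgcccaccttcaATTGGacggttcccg
Pklr, chr3:89136373-89136622, plus strand: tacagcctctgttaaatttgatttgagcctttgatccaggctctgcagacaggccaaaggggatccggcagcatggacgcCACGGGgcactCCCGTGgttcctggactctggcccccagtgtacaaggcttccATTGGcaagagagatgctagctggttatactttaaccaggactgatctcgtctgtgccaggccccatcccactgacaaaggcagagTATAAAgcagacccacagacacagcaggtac
The Aldoa window was GC-rich at 67.6%, against a median of 52.4% over 32851 windows of the same length. It held 2 matches to the GC box core, spelled GGGCGG, which 32.7% of all windows held. It also held 1 match to the core bound by hypoxia-inducible factor and several other factors, spelled ACGTG and present in 16.6% of all windows. The Pklr window was 54.4% GC and held 1 TATA element, spelled TATAAA and present in 12.4% of all windows. It also held 2 facing matches to the core spelled CACGGG, a layout known from the carbohydrate response element of this gene, and 8.46% of all windows held it. Each window had 1 match to the CCAAT box, which 33.8% of all windows held. No 2 of the marked matches overlapped. Of the other Aldoa windows, 1 overlaps the printed one and is also 67.6% GC, and the other is 50.4% GC with 0 matches to these motifs. The other Pklr window had 0 matches, and both Hk1 windows also had 0, so the printed pair does not stand for the isozymes as classes. These matches describe letters only, and no binding was measured.

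Aldoa was the member that stood apart. Its product cleaves fructose 1,6-bisphosphate in muscle and most other tissues outside the liver. On the brightest of its 5 probe sets the signal was 7741 on the antagomir-122 array and 4233 on the control array, a log2 ratio of 0.87, or 1.83-fold higher. The other probe sets read 6130 against 2730, 5958 against 2785, 4115 against 2373, and 2975 against 1413. Each of the 5 was thus higher in the antagomir-122 pool, by 1562.5 to 3508 signal units, although the dimmest antagomir-122 readings lay below the brightest control reading of another probe set. Their log2 ratios ran from 0.79 to 1.17 with a median of 1.07 and an SD of 0.16 over the 5 probe sets. The spread between probe sets was 0.28 over all genes and 0.21 over genes within 2-fold of the Aldoa mean signal. All 5 probe sets carry the suffix _x, which marks probes that may bind other transcripts, and they read the same 2 pools, so they are not independent readings.

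At 1.5-fold, 1 of the 8 members was past the threshold upwards and 0 downwards, against 5.12% and 2.62% of the 10003 genes. Among 8 genes a count of 1 is near that background and says nothing of the isozymes as a set. Its ratio was the 149th highest of 10003, so that 1.49% of genes were at or above it. Among the 1242 genes within 2-fold of its mean signal, where ratios are tighter, 2.01% were past 1.5-fold upwards and 0.644% downwards. The probe-set spread among genes of that brightness was 0.21 over 717 genes, and the ratio of Aldoa was 4.12 times that value. Of the 15 member probe sets above the floor, 5 were at least 1.5-fold higher, all of them of Aldoa, and 0 were lower, against 5.16% and 3.24% of 16023 probe sets. At 2-fold, 3 of the 5 Aldoa probe sets were past the threshold, against 0.824% of all probe sets higher and 0.393% lower. Of 167 genes with at least 5 probe sets above the floor, 2 (1.2%) had every one at least 1.5-fold higher. They were Aldoa and Ptdss2, a phosphatidylserine synthase gene named after its values were seen. Probe sets of a gene read the same 2 pools, so this count gives no support apart from the ratio itself.

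**Figure D1:**
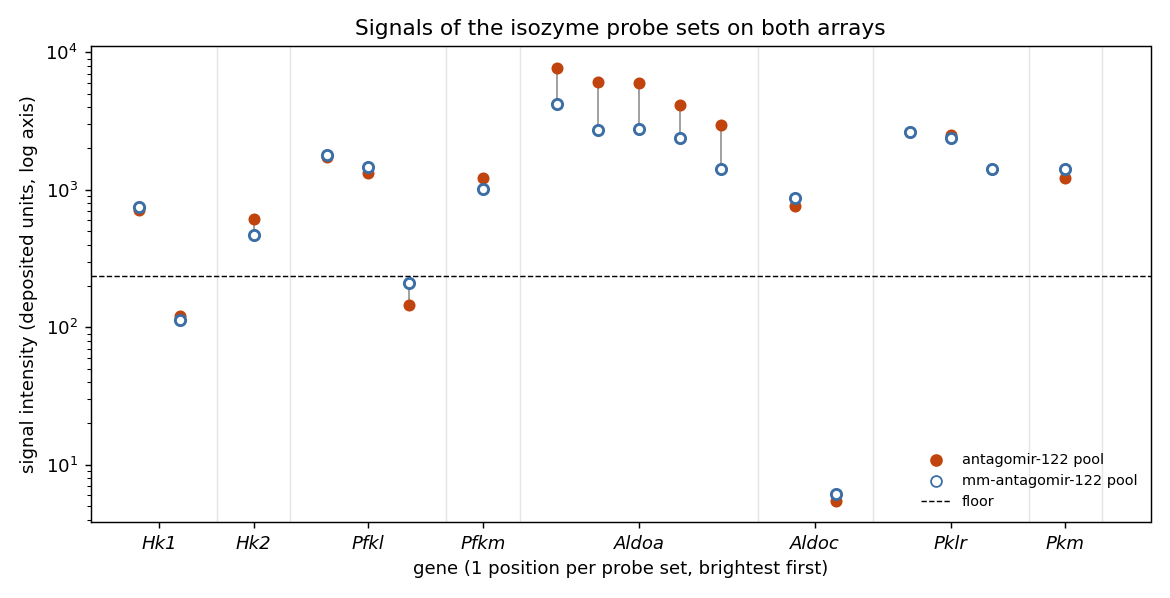
Signal intensity on a log axis for each single-gene probe set of the 8 genes, with filled points for the antagomir-122 pool, open points for the mm-antagomir-122 pool and a dashed line at the floor of 238. The 5 Aldoa probe sets show the wide gaps, from 1.73-fold to 2.25-fold, while the points of most other probe sets nearly coincide.

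Aldoc, the aldolase of brain, lay slightly the other way. Its probe set above the floor read 762 on the antagomir-122 array and 875 on the control array, a log2 ratio of -0.20, which is within the spread of 0.28. Its second probe set was at 5.5 and 6.1, far under the floor, and gives no ratio. The difference between the log2 ratios of Aldoa and Aldoc was 1.07, and over the 5 combinations of their probe sets above the floor it ran from 0.99 to 1.37. That is 2.73 times the spread of 0.39 for a difference between 2 genes.

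At pyruvate kinase, the step that yields pyruvate, neither isozyme was past the spread. Pklr, whose product serves liver and red cells, read 2635 against 2638 on its brightest probe set, 2490 against 2365 on the next and 1425 against 1418 on the dimmest, antagomir-122 first. Its log2 ratios ran from -0.00 to 0.07, the narrowest range among the members with several probe sets. Pkm, the gene of the muscle type and its splice variant PKM2, read 1217 against 1427, a log2 ratio of -0.23 on a single probe set. The extrahepatic isozyme was therefore the lower of the pair in ratio. Pkm minus Pklr was -0.23, and over the 3 combinations it ran from -0.30 to -0.23, all smaller than the spread of 0.39. A single probe set for the whole gene does not separate the splice variants of Pkm. Of 5 measured splicing regulators of Pkm, 0 were past 1.5-fold in either direction, against 5.12% of all genes higher and 2.62% lower. Their median was -0.28, or -0.00 when scaled on the hybridization controls. Among them, Srsf3 had a log2 ratio of -0.37, Ptbp2 -0.31, Ptbp1 -0.28 and Hnrnpa2b1 -0.20, while another probe set of Ptbp1 had 0.88.

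At phosphofructokinase, which commits sugar to glycolysis, the liver subunit Pfkl read 1746 against 1777 on its brightest probe set and 1316 against 1464 on the second. These are log2 ratios of -0.03 and -0.15. The remaining Pfkl probe set was under the floor on both arrays, at 147 and 212. Pfkm, the muscle subunit, read 1210 against 1015, a log2 ratio of 0.25 and still within the spread. Pfkm minus Pfkl was 0.28, and 0.41 with the second Pfkl probe set, against a spread of 0.39. Pfkp, the platelet subunit and not a member, read 279 against 241, just above the floor, with a log2 ratio of 0.21. Its other 2 probe sets were under the floor on both arrays.

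Hexokinases trap glucose in the cell by phosphorylation. Hk2, the insulin-responsive form of muscle and fat, read 618 against 470, a log2 ratio of 0.39 and 1.31-fold higher on its single probe set. This was the only member besides Aldoa past the spread of 0.28, and 11.8% of all genes were at or above it. Hk1, the widely expressed form, read 719 against 755, a log2 ratio of -0.07, with a second probe set under the floor at 121 and 113. Hk2 minus Hk1 was 0.46, against a spread of 0.39. Hk3, a hexokinase of myeloid cells and not a member, read 809 against 628 and 623 against 503, log2 ratios of 0.37 and 0.31.

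**Figure D2:**
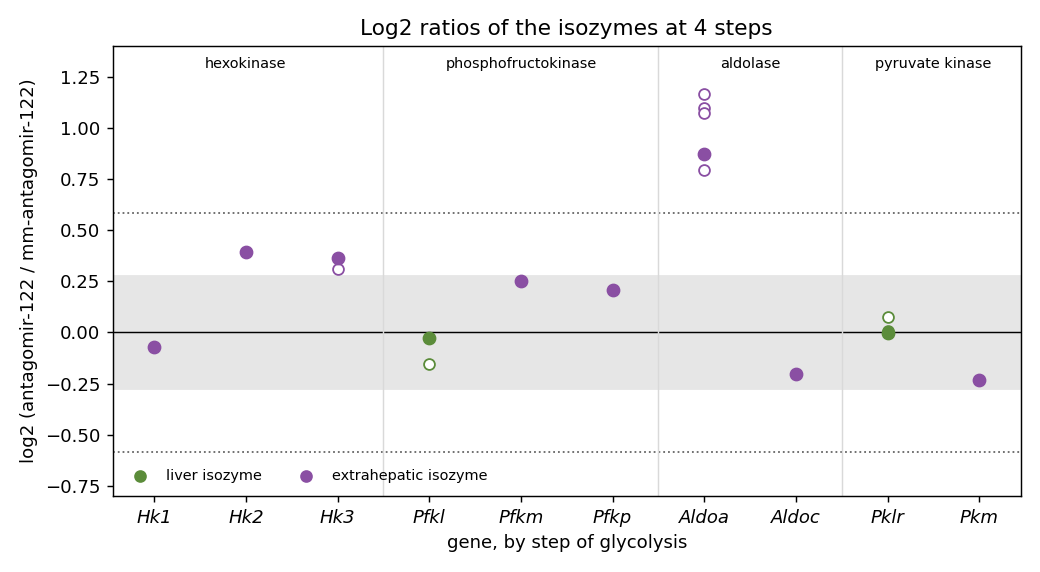
Log2 ratio of antagomir-122 over mm-antagomir-122 signal for the isozymes of 4 steps, with filled points for the brightest probe set, open points for other probe sets above the floor, a grey band for the probe-set spread of 0.28 and dotted lines at 1.5-fold. Aldoa alone lies beyond the dotted lines, Hk2 and Hk3 lie above the band, and the liver isozymes Pfkl and Pklr lie near 0.

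By class, the extrahepatic isozymes lay on both sides of 0. The 8 measured extrahepatic genes of these steps, Hk3 and Pfkp included, had a median log2 ratio of 0.23, with 5 above 0 and 3 below. Those above 0 were Aldoa, Hk2, Hk3, Pfkm and Pfkp, and those below were Hk1, Aldoc and Pkm. The 2 measured liver isozymes, Pfkl and Pklr, had -0.03 and -0.00. Over all genes 50.3% were above 0 and 49.6% below. The 7 members other than Aldoa had ratios from -0.23 to 0.39 with a median of -0.03, and 6 of them were within the spread, as were 64.9% of all genes. The split of 5 and 3 was the same with median centring, quantile normalization and loess correction. When scaled on the hybridization controls all 8 extrahepatic genes and all 8 members lay above 0, and Hk2 and Hk3 passed 1.5-fold beside Aldoa, with log2 ratios of 0.67 and 0.64, where 16.9% of all genes were at least 1.5-fold higher.

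**Figure D3:**
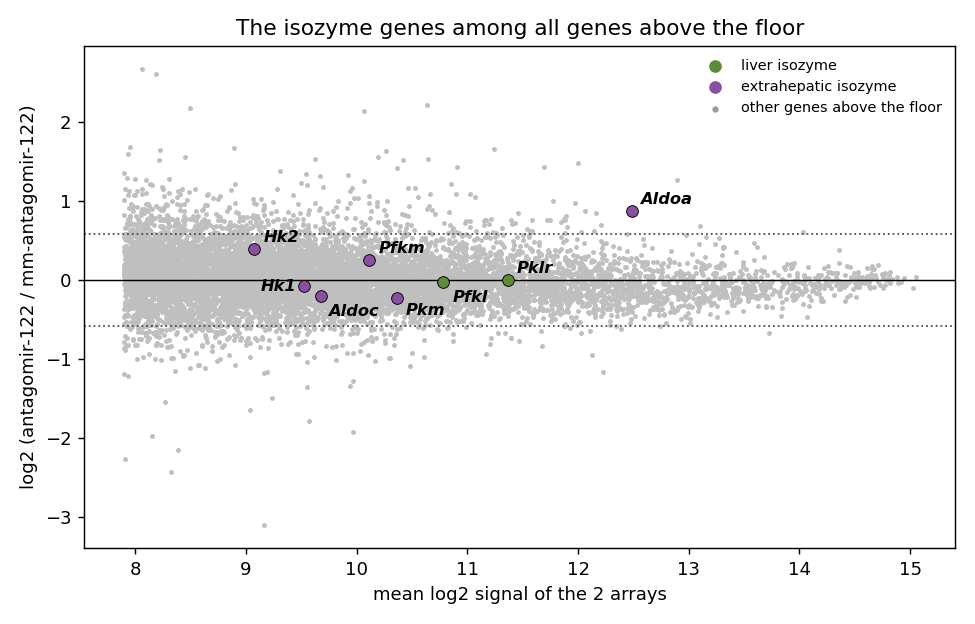
Log2 ratio against mean log2 signal for the 10003 genes above the floor (grey), with the 8 isozyme genes marked and dotted lines at 1.5-fold. Aldoa lies above the cloud of genes of like signal, while the other 7 lie inside it between -0.23 and 0.39.

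Along the rest of the pathway no enzyme was past 1.5-fold. Of 14 enzymes listed, 11 had a probe set naming them alone and 8 were above the floor. Of these 8, 0 were past 1.5-fold in either direction, against 5.12% of all genes higher and 2.62% lower. A total of 7 lay below 0, against 49.6% of all genes, and the median was -0.21, against 0.00 for all genes. When scaled on the hybridization controls 3 lay below 0 and the median was 0.06. With that scaling 1 was past 1.5-fold upwards and 0 downwards, against 16.9% and 0.63% of all genes. Triosephosphate isomerase Tpi1, which acts on the products of aldolase, read 6946 against 8692, a log2 ratio of -0.32, and its 3 probe sets ran from -0.49 to -0.32. Pgam1, a phosphoglycerate mutase, read 3327 against 4352, a log2 ratio of -0.39. Bpgm, the related mutase of red cells, had -0.37 on its brightest probe set, while its second lay in the other direction.

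Ldha, the lactate dehydrogenase subunit of muscle and liver, had -0.20, and Pgk1, phosphoglycerate kinase, had -0.09 at signals of 17564 and 18724. Ldhb, the heart subunit, had -0.23 on its brightest probe set, but its 3 probe sets ran from -0.23 to 0.44. Gapdhs, a form of sperm, had -0.18. Eno3, the muscle enolase, was the member of this list above 0, at 339 against 254 and a log2 ratio of 0.41. Pgk2, Pgam2 and Eno2 were under the floor, and Gpi1, Gapdh and Eno1 were not analysed here. Tpi1, at the step after aldolase, was thus on the other side of 0 from Aldoa as deposited, and at -0.05 when scaled on the hybridization controls. As deposited its 3 probe sets, from -0.49 to -0.32, were past the spread of 0.28.

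**Figure D4:**
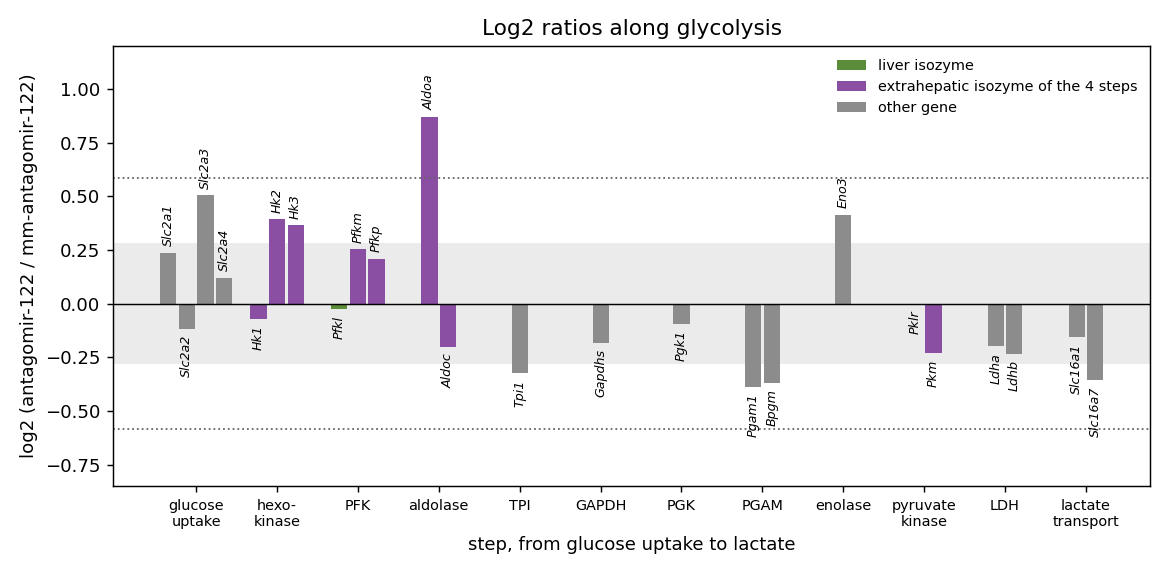
Log2 ratio on the brightest probe set for genes above the floor from glucose uptake to lactate, with liver isozymes in green, extrahepatic isozymes of the 4 steps in purple and other genes in grey; the band is the spread of 0.28 and dotted lines mark 1.5-fold. Aldoa at 0.87 is the bar past 1.5-fold, and the bars from Tpi1 to lactate transport lie mostly below 0, with Eno3 at 0.41 above.

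Regulators and transporters around the pathway were mixed. The median of 11 measured regulators was -0.05 as deposited, and 0 were at least 1.5-fold lower, against 2.62% of all genes. The ratio of 1, Pfkfb2, was past 1.5-fold upwards as deposited, against 5.12% of all genes. With quantile normalization or loess correction 0 were, against 4.48% and 4.56% of all genes. Pfkfb2 makes and breaks down the phosphofructokinase activator fructose 2,6-bisphosphate. Its control signal of 200.4 was under the floor, so its signal of 314 supports only a bound of at least 1.3-fold higher, which is short of 1.5-fold. Pfkfb3, of the same family, was at least 1.38-fold higher as deposited, since its control signal of 224 was also under the floor. Scaled on the hybridization controls, 3 regulators were past 1.5-fold upwards, Pfkfb2 and Pfkfb3 among them, where 16.9% of all genes were. Ppp2r5c, a phosphatase subunit, had -0.44 on its brightest probe set, but its 5 probe sets ran from -0.44 to 0.60. Tigar, a fructose bisphosphatase-like gene, had 0.41 with another probe set at -0.05. Mlxipl (ChREBP), the sugar-sensing activator of Pklr, had -0.16. Hif1a, the hypoxia factor that activates many glycolytic genes, had -0.05, with other probe sets down to -0.47.

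Of 9 measured glucose and lactate transporters, 0 were past 1.5-fold in either direction as deposited, against 5.12% of all genes higher and 2.62% lower. When scaled on the hybridization controls 2 were past it upwards, where 16.9% of all genes were. The median was 0.15 as deposited, with -0.14 over the 4 brightest, those above the 80th percentile. Slc2a2 (GLUT2), the hepatocyte glucose transporter, read 11635 against 12612, a log2 ratio of -0.12. Slc2a3 (GLUT3) had 0.50, and Slc2a1 (GLUT1) had 0.24 on its brightest probe set with a highest value of 0.39. The fructose carrier gene Slc2a5 was at least 1.485-fold higher, since its control signal lay just under the floor, and the monocarboxylate carrier gene Slc16a7 had -0.35. The median of 11 genes for entry of pyruvate into mitochondria was -0.11. Of these, 0 were at least 1.5-fold higher and 1 was at least 1.5-fold lower, against 5.12% and 2.62% of all genes. That gene was Dld, a dehydrogenase subunit shared by several complexes, which read 1648 against 2488 and was 1.51-fold lower, and it was under that threshold with quantile normalization, loess correction or scaling on the hybridization controls. Dlat had -0.44 with another probe set at 1.14, and Pdk1 had -0.25 with another probe set at 0.41. Pdk4, a kinase that shuts off pyruvate dehydrogenase, had 0.40, or 0.67 when scaled on the hybridization controls. With that scaling Pdk4 was past 1.5-fold upwards, as were 16.9% of all genes. The 4 measured fructose genes had a median of 0.03. Of these, 0 were past 1.5-fold in either direction, against 5.12% of all genes higher and 2.62% lower. Khk, ketohexokinase, had 0.12, Tkfc 0.05, Glyctk -0.19 and Aldh1a1 0.01.

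Markers of other cells that express Aldoa were set beside it. Of 14 leukocyte markers 13 were above the floor, and all 13 had ratios above 0 under each of the 5 scalings, where 50.3% of all genes were above 0 as deposited. As deposited 5 were past 1.5-fold upwards and 0 downwards, against 5.12% and 2.62% of all genes, and the median was 0.50. The marker under the floor was Itgam. The brightest probe sets of all 14 summed to 55941 signal units in the antagomir-122 pool and 37594 in the control pool. The neutrophil genes S100a8 and S100a9 had 2.22 and 2.14, and C1qc, Adgre1 and Coro1a had 0.69, 0.60 and 0.60. The part of leukocyte RNA in the Aldoa, Hk2 and Hk3 values was not tested, and in pooled liver RNA more cells of a type and more RNA per cell cannot be told apart.

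The 10 skeletal muscle markers were under the floor on both arrays, with antagomir-122 signals from 21.7 to 187 and control signals from 20.4 to 123. Among them the creatine kinase gene Ckm read 141 and 94.1 and the actin gene Acta1 read 21.7 and 35.1. Their summed signals were 938 and 606, and their part in the Aldoa value was not tested. Of 10 erythroid markers 5 had a probe set naming them alone and 2 were above the floor, Alas2 at 0.08 and Klf1 at 0.31, with summed signals of 1673 and 1491 over the 5. Of 7 endothelial markers, all above the floor, 0 were at least 1.5-fold higher and 1 was lower, against 5.12% and 2.62% of all genes. That marker was Tek at -0.73, which was short of 1.5-fold when scaled on the hybridization controls. The endothelial median was 0.02, with summed signals of 8929 and 9362. All 7 stellate and fibroblast markers were above the floor. As deposited 0 of them were past the threshold in either direction, against 5.12% of all genes higher and 2.62% lower. Their median was 0.13, with summed signals of 13892 and 12430. Des was at least 1.295-fold lower as deposited, since its antagomir-122 signal of 209 was under the floor. Its log2 ratio with quantile normalization or loess correction was -0.66, past 1.5-fold, where 3.3% and 3.28% of all genes were lower. That ratio rests on the same dim signal and is not a bound. Col1a1 and Acta2 had 0.44 and 0.42. When scaled on the hybridization controls they had 0.71 and 0.69, both past 1.5-fold upwards, as were 16.9% of all genes. The 9 hepatocyte markers had a median of -0.02, with 0 past 1.5-fold, against 5.12% of all genes higher and 2.62% lower.

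A 2-array design gives each gene a single ratio, so likeness to Aldoa is only nearness of that ratio. Among genes with at least 2 probe sets above the floor, the 4 nearest to the Aldoa ratio of 0.87 on their brightest probe sets were Kcnk5, a potassium channel gene, at 0.87, Slc45a2, a melanosomal transporter gene, at 0.88, Kifbp, a kinesin-binding protein gene, at 0.85, and Als2cl at 0.84. Their signals on the antagomir-122 array ran from 507 to 1518, all dimmer than Aldoa. The second probe set of Slc45a2 was also past 1.5-fold, at 0.74, while those of Kcnk5 and Als2cl had 0.41 and 0.17 and that of Kifbp had -0.23.

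**Figure D5:**
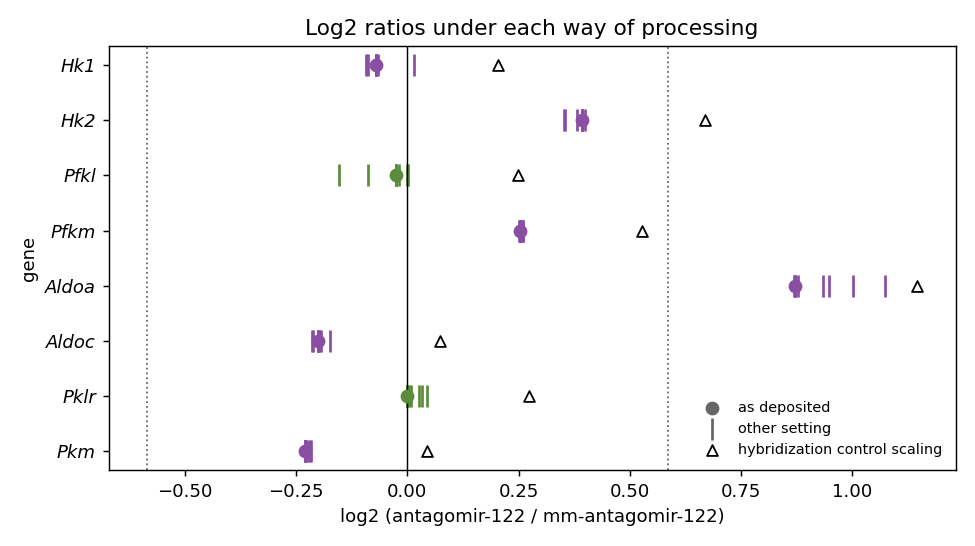
Log2 ratio of each isozyme gene as deposited (filled point), under the other settings (ticks) and when scaled on the hybridization controls (triangles), with dotted lines at 1.5-fold. Aldoa stays between 0.87 and 1.15 in every setting that gives it a value, and the triangles put all genes above 0.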

How the data were processed

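Per the submitters' processing notes the authors used MAS5, and what they deposited is a linear signal intensity for each probe set; the version and detection calls were not given in the sources used here. Genes were named through the platform annotation and the RefSeq table of GRCm38.p6. Of the non-control probe sets 34945 had 1 gene, and only these were used. Ratios were log2 of antagomir-122 over mm-antagomir-122 intensity with no pseudocount. A fold whose dimmer signal was under the floor was taken against the floor and is a lower bound; where both were under it no ratio is given. The floor applied to the mean of the 2 log2 signals.

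For the spread, the log2 ratio of the next brightest probe set was subtracted from that of the brightest, and the SD over genes was divided by the square root of 2. Members and lists were chosen with earlier results of these data known. Named genes were every member, Hk3 and Pfkp, the other glycolytic enzymes above the floor, in each other list those past 1.5-fold and up to 4 with the largest ratios, and the 4 nearest to Aldoa; others were chosen after their values were seen. Of 6 planned isozyme pairs, 2 are reported here. Alternatives were 4 scalings, 3 floor settings, a pseudocount of 16, other summaries of probe sets, no suffixed probe sets, and thresholds of 1.4-fold and 2-fold. Python 3.11.15, numpy 2.4.6, pandas 2.3.3 and statsmodels 0.14.6 were used, and the calculation was tested on simulated data.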

Additional observations from a re-analysis of the deposited data

How the results depend on the processing

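Aldoa was at least 1.5-fold higher under each of the 10 alternatives that gave it a value, with log2 ratios from 0.87 to 1.15. Without suffixed probe sets 4 of the 8 members were left and Aldoa was not among them. Of these, 0 were past the threshold, against 5.45% of all genes higher and 2.79% lower. At 2-fold 0 members were higher, since the brightest Aldoa probe set lies under it, against 0.83% of all genes. When scaled on the hybridization controls 2 of the 8 were past 1.5-fold, Aldoa and Hk2, against 16.9% of all genes. No member was lower past the threshold under any of the 13 alternatives, where 0.31% to 9.78% of all genes were. Hk1, Pfkl, Aldoc, Pklr and Pkm, each below 0 as deposited, lay above 0 when scaled on the hybridization controls. Pklr did so under 6 of its 11 alternatives, Hk1 under 2 of 10 and Pfkl under 2 of 10, and Aldoc and Pkm under that scaling alone. Pfkm minus Pfkl ran from 0.26 to 0.41 and Pkm minus Pklr from -0.26 to -0.23. Aldoa minus Aldoc and Hk2 minus Hk1, added after seeing the data, ran from 1.06 to 1.25 and from 0.38 to 0.46. With the floor at the 80th percentile Hk2 had no value. With no floor, on the brightest probe set or the median of all, 1 of 11 other glycolytic enzymes was higher and 2 were lower. Over all genes 15.2% were higher and 9.42% lower on the brightest probe set, and 15.5% and 9.78% on the median. No paired analysis was possible because each group has 1 array. Without detection calls, dim signals cannot be told from background.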
